A study of Mus musculus with 72 samples.

Results

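The genes described here encode 7 subunits of the GABA-A receptor other than alpha 2: Gabra3, Gabra4 and Gabra5 (alpha subunits), Gabrb1 and Gabrb2 (beta subunits), Gabrg1 (a gamma subunit) and Gabrd (the delta subunit). They were chosen by symbol, each symbol matched 1 Ensembl gene, and all 7 of the 55401 genes in the count table passed the low-count filter in every fit. Bulk mRNA sequencing covered 2 parts of the hippocampus, dorsal (DH) and ventral (VH), in male mice that carry the label C57BL/6J (6J) or C57BL/6NJ (6NJ), closely related inbred substrains. Mice came from the home cage, or were taken 30 min after a cue alone or after shock with the cue, which is fear conditioning. These 2 regions, 2 labels and 3 conditions gave 12 groups of 6 libraries, 72 in all. Each library had a code such as 31A, shared by 1 DH and 1 VH library. No age is given. Nothing in the labels states that a group's libraries are from different animals, and each p-value therefore reflects the spread among libraries, which may be technical.

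GABA-A receptors are chloride channels assembled from several subunits that open when GABA, the main inhibitory transmitter of the brain, binds between an alpha and a beta subunit. Many receptors gather at synapses, whereas receptors with delta, often paired with alpha 4 in dentate granule cells, and many receptors with alpha 5, which is abundant in hippocampal pyramidal cells, lie outside synapses and carry tonic inhibition. Alpha 3 is best known from monoaminergic neurons, the reticular thalamus and deep cortical layers, and gamma 1 from the amygdala and from glia.

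Library totals were 30330382 to 56258370 counts, and 6 codes labelled 6J, 4 in the cue and 2 in the home cage groups, held Lcn2, an acute-phase gene, above 2 CPM (counts scaled to a common library total) in both regions. The strain labels went against known genetics: C57BL/6J is known for low Gabra2, yet libraries labelled 6J held 237 ± 12.4 CPM of Gabra2 in DH against 110 ± 9.94 CPM for 6NJ, and 297 ± 21.6 against 131 ± 13.6 CPM in VH (SD, n = 18 each), with no overlap. Directions between strains are therefore directions between labels. Ventral marked genes, 4 genes known from the ventral hippocampus, summed to 25.6 to 136 CPM in DH and 85.1 to 250 CPM in VH, and markers of dentate granule cells, of which there were 10, to 611 to 1130 and 500 to 837 CPM. No marker gene of any list had a mean under 0.1 CPM.

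Levels of the subunits differed more between genes than between groups. On the scale of counts per kilobase of exon, scaled to library size as CPM is (RPKM), Gabra5 was the highest of the 7, at 70.5 ± 10.1 in DH and 60.8 ± 8.34 in VH (SD, n = 36 each), at percentile 97.1 of the genes tested. Gabrg1 was the lowest, at 2.75 ± 0.416 RPKM in DH and 3.25 ± 0.393 in VH, at percentile 48.4. In both regions these outer members did not overlap with any of the other 5.

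Between them the order depended on the region. In DH it ran from Gabra4 (17.7 ± 1.4 RPKM) and Gabrb1 (16.4 ± 1.27) to Gabrb2 (11.9 ± 1.83), Gabra3 (11.2 ± 2.05) and Gabrd (8.72 ± 1.37). In VH it ran from Gabra3 (22.1 ± 2.53) and Gabrb1 (18.1 ± 1.57) to Gabra4 (14.7 ± 1.13), Gabrb2 (10.3 ± 2.09) and Gabrd (6.09 ± 1.03). Every neighbouring pair in these 2 orders overlapped in range, and the means of Gabrb2 and Gabra3 in DH differed by less than either SD.

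**Figure D1:**
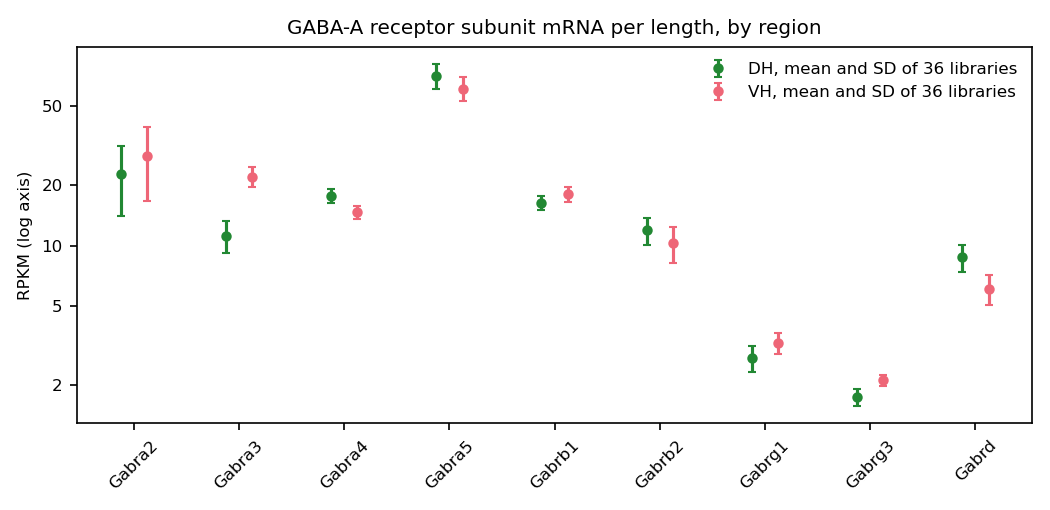
Level of GABA-A receptor subunit mRNA in RPKM on a log axis, with points for the mean and bars for the SD of the 36 libraries of DH and of VH. Of the genes drawn, Gabra5 is the highest, Gabrg1 and Gabrg3 are the lowest, and Gabra3 is the member whose regions lie farthest apart.

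Within the alpha class, Gabra5 took 41.9% ± 2.38 of the summed alpha RPKM in DH labelled 6J and 46.7% ± 5.4 in DH labelled 6NJ, and 35.8% ± 1.67 and 40.3% ± 5.85 in VH (SD, n = 18 each). The sum includes Gabra2, which fell from 18.7% to 9.58% in DH and from 22.6% to 11.6% in VH, so these shares can rise without a higher level of Gabra5. Gabra3 took 7.16% of the alpha sum in DH and 13.5% in VH labelled 6J. Among gamma, delta and epsilon subunits, Gabrd took 17.4% in DH labelled 6J and 14.2% in VH, and Gabrg1 6.12% and 8.67%.

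Several members lie beside each other. Gabrg1 (ENSMUSG00000001260, chromosome 5, 70751047 to 70842617, minus strand; GRCm38) lies 115 kb from Gabra2. Gabra4 (ENSMUSG00000029211, chromosome 5, 71569749 to 71658308, minus strand) and Gabrb1 (ENSMUSG00000029212, 71658113 to 72149037, plus strand) stand head to head and share 196 bases. Gabra5 (ENSMUSG00000055078, chromosome 7, 57407672 to 57510059, minus strand) lies apart from these.

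The other 3 are Gabrb2 (ENSMUSG00000007653, chromosome 11, 42419757 to 42629028, plus strand), Gabra3 (ENSMUSG00000031343, chromosome X, 72432681 to 72656848, minus strand) and Gabrd (ENSMUSG00000029054, chromosome 4, 155384980 to 155398112, minus strand). The strand setting of the counting is not given in the sources used here, so reads in overlaps could have been assigned to either gene. The values of Gabra4, Gabrb1 and Gabra5 are uncertain to that extent.

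Promoters are shown for 4 members picked for their values. Gabra3 differed most between regions, Gabra5 was low in single codes, and Gabra4 and Gabrb1 are neighbours that differed in opposite directions between regions. The part of these sequences in the results was not tested. RefSeq promoter entries on GRCm38.p6 were found for 6 of the 7, and Gabrd had none in the table. Only bases before the start that lie in no annotated exon are printed, 5′ to 3′ on the gene's strand, and capitals mark matches to the motifs named below. The RefSeq start of Gabrb1 lies inside the gene as annotated in GENCODE, so its stretch is not the start that faces Gabra4. None of the 3 annotated Gabra3 transcripts held the bases just after the RefSeq start.
Gabra3, chrX:72656920-72657169, minus strand: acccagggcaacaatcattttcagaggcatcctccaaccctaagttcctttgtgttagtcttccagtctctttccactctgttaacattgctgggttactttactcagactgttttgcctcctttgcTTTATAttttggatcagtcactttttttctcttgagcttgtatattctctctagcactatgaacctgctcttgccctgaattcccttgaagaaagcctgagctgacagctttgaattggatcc
Gabra5, chr7:57510060-57510309, minus strand: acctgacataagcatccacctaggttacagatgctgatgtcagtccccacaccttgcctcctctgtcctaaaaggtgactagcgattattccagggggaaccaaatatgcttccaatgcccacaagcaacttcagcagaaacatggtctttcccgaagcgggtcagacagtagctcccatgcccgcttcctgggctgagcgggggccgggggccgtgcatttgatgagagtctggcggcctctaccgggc
Gabra4, chr5:71658364-71658558, minus strand: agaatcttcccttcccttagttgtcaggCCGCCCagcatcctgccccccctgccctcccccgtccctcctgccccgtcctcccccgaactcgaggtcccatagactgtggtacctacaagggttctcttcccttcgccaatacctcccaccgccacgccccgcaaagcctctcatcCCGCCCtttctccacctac
Gabrb1, chr5:71699825-71699931, plus strand: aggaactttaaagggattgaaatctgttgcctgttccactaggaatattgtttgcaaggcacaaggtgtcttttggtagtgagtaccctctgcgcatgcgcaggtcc

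Searched on both strands were the core of the cAMP response element (TGACG), the Egr site (GCGTGGGCG), the GC box (GGGCGG) and the TATA box (TATAAA); none of these overlaps another in the printed windows. Gabra4 held 2 GC boxes, and 23.8% of 32851 promoters held at least 1 in the same 195 positions. Gabra3 held 1 match to the TATA box letters, printed as TTTATA, which is TATAAA on the other strand. At least 1 match on either strand was held by 12.4% of promoters in the same 250 positions. The other motifs had no match in the 4 windows, which says only that these letters are not there: over 250 positions 17.8% of promoters held TGACG and 0.536% GCGTGGGCG.

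Between regions, Gabra3 showed the largest difference of the 7. It ranged from 29.9 to 67 CPM in DH, with a median of 43.3, and from 68.4 to 104 CPM in VH, with a median of 87.4 (36 libraries each). Every DH library lay below every VH library, and VH was higher in all 36 codes. The log2 fold change, DH over VH, was -0.99 ± 0.0477 (SE, adjusted p = 1.94e-27, edgeR). The highest DH libraries were 40A, labelled 6NJ and cue, at 67.0 CPM and 33A, labelled 6J and shock with cue, at 65.9 CPM. In the DH library 40A the ventral marked genes summed to 127 CPM, against a median of 44.8 CPM in DH labelled 6NJ, and in 33A to 51.1 CPM. The highest such sum in DH was in 32B, labelled 6J and cue, at 136 CPM, where Gabra3 was at 42.7 CPM. Without the DH library 40A the difference was -1.025 (adjusted p = 1.22e-31).

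Gabrd and Gabra4, which form extrasynaptic receptors together, were higher in DH. Gabrd ranged from 17.7 to 35.5 CPM in DH (median 24.9) and from 13.1 to 26.3 CPM in VH (median 17.1), with 13 DH libraries above every VH library and DH higher in 33 of 36 codes. The log2 fold change was 0.52 ± 0.045 (adjusted p = 2.75e-16). Gabra4 ranged from 90.5 to 124 CPM in DH (median 108) and from 74.4 to 106 CPM in VH (median 88.6), with a log2 fold change of 0.26 ± 0.0242 (adjusted p = 1.75e-15), and 35 of 36 codes were higher in DH. Both genes overlapped between regions in part of the libraries.

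Gabra5 and Gabrb2 were higher in DH by smaller amounts relative to their spread. Gabra5 had a median of 214 CPM in DH (120 to 264) and 184 CPM in VH (95.4 to 237), with a log2 fold change of 0.21 ± 0.0514 (adjusted p = 0.000314), and 32 of 36 codes were higher in DH. Gabrb2 had a median of 74.8 CPM in DH (54.1 to 99.3) and 66.7 CPM in VH (32 to 87.8), with a log2 fold change of 0.21 ± 0.0577 (adjusted p = 0.000968), and 23 of 36 codes were higher in DH. Most libraries of both genes lay within the range of the other region.

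Gabrb1 and Gabrg1 were lower in DH. Gabrb1 had a median of 224 CPM in DH (193 to 274) and 249 CPM in VH (210 to 298), a log2 fold change of -0.15 ± 0.0237 (adjusted p = 9.21e-08), with DH higher in 4 codes. Gabrg1 had a median of 21.3 CPM in DH (15.4 to 32.1) and 25.8 CPM in VH (18.1 to 31.6), a log2 fold change of -0.24 ± 0.0413 (adjusted p = 6.43e-07), with DH higher in 7 codes. Gabrb1 therefore went the other way from Gabra4, its neighbour on chromosome 5.

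In all, 4 of the 7 were higher in DH and 3 lower, with a median log2 fold change of 0.21 against 0.004 over all genes. The background is high: 63.6% of the 20255 genes tested differed between regions (32.7% higher and 30.9% lower in DH), so most genes passed along with the members. In bulk tissue, fewer cells of a type and less RNA per cell cannot be told apart. Markers of other cells moved with the region: 9 of 10 dentate granule cell markers were higher in DH (median 0.672), 8 of 8 oligodendrocyte markers (0.849), 7 of 7 choroid plexus markers (1.688) and 6 of 6 microglial markers (0.215). Of 10 inhibitory interneuron markers 1 was higher and 5 lower in DH (median -0.093; summed level 543 to 740 CPM in DH and 583 to 850 CPM in VH). Of 8 markers of CA2 and CA3 pyramidal cells 4 were higher and 3 lower (median 0.162), while their sum was 623 to 815 CPM in DH and 804 to 1150 CPM in VH. The part of these cells in the members' differences was not tested, and the dentate covariate below cannot separate dentate content from region. Summed oligodendrocyte markers were 6250 to 12800 CPM in DH and 3230 to 8210 CPM in VH.

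With the mean log2 CPM of the dentate markers as a covariate, 2 of the 7 passed, Gabra3 and Gabrb1, and 4442 genes in all. Most of these markers were themselves higher in DH, so a fit with them takes out part of the regional difference whatever its source. With the covariate Gabrd was at 0.11 (adjusted p = 0.367), Gabra4 at 0.02 (0.749), Gabra5 at 0.12 (0.511) and Gabrg1 at -0.09 (0.549), and Gabrb2 turned to -0.18 (0.274). Whether the difference between regions itself depended on the strain label was tested too. None of the 7 passed, none had an unadjusted p under 0.05, and DESeq2 also called 0; 1 of 20255 genes (0.00494%) passed.

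**Figure D2:**
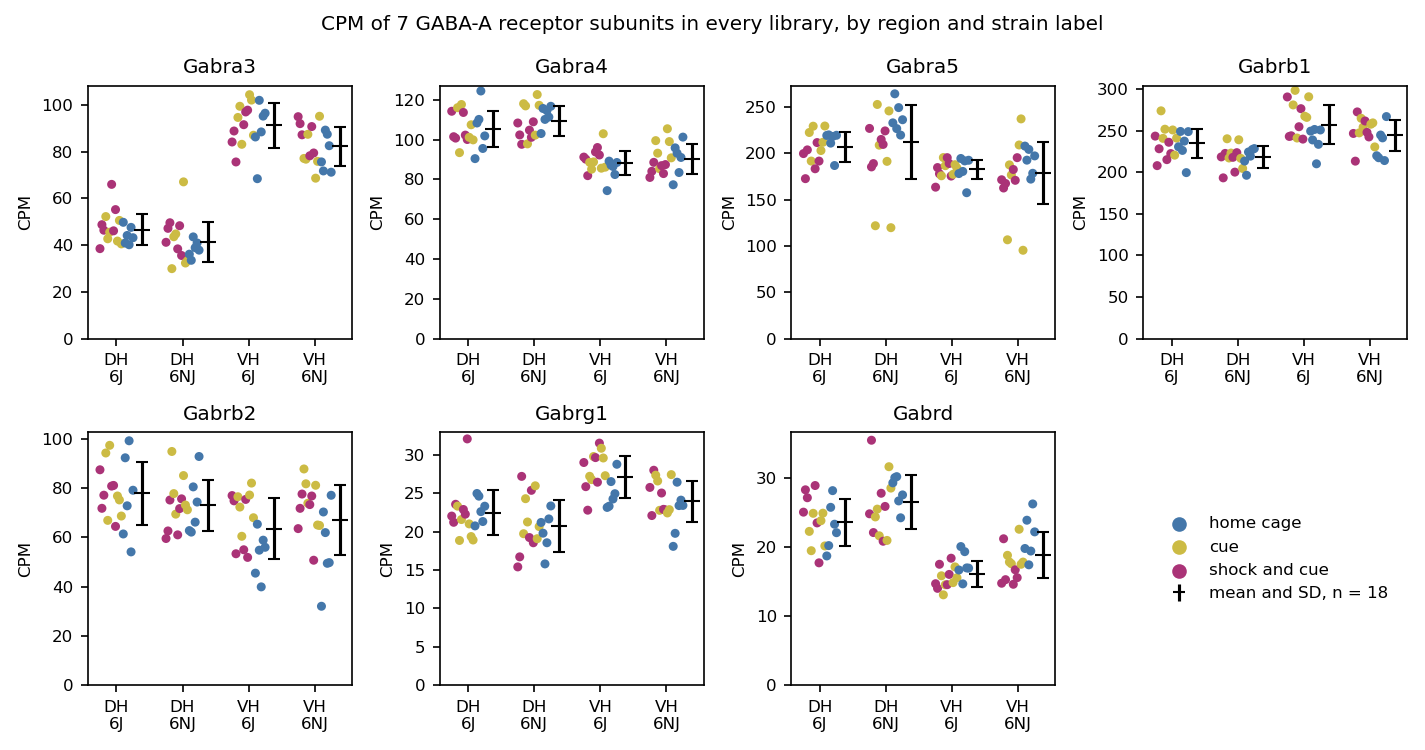
CPM of the 7 subunits in every library, in columns for region and strain label, coloured by condition, with the mean and SD of 18 libraries as black bars. Gabra3 separates DH from VH completely, and 2 cue libraries labelled 6NJ lie low in Gabra5 in each region.

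Transcripts followed their genes between regions. All 25 annotated transcripts of the 7 genes were in the deposited table of estimated counts, and of the 19 tested 12 passed, against 26.9% of 60332 transcripts tested. Gabra3-201, annotated as protein-coding, made up 99.5% of Gabra3 in both regions and had a log2 fold change of -0.99 ± 0.0485 (adjusted p = 2.97e-26). Gabrd-201, which codes for the delta subunit, was at 0.49 ± 0.0473 and the non-coding Gabrd-203 at 0.61 ± 0.0773 (adjusted p = 1.39e-13 and 1.14e-09). Of the 3 coding transcripts of Gabra5, Gabra5-202 made up 66.5% ± 4.98 of the gene in DH and 70% ± 4.89 in VH (SD, n = 36). The share of Gabra5-203 was 8.05% ± 5.46 in DH and 3.82% ± 3.98 in VH, from 0 to 17.6%; estimated counts divide reads between transcripts of a gene.

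Between strain labels, averaged over the 3 conditions, 3 members differed in VH and 1 in DH. In VH, Gabrg1 and Gabra3 were lower and Gabrd was higher under the label 6NJ. Gabrg1 ranged from 18.1 to 28 CPM under 6NJ (median 23.4) and from 22.8 to 31.6 CPM under 6J (median 27), a log2 fold change of -0.18 ± 0.0458 (adjusted p = 0.00778). The 6NJ range began lower, with 5 of its 18 libraries under the 6J minimum, and 7 of the 6J libraries exceeded the 6NJ maximum. Gabrg1 lies beside Gabra2, whose log2 fold change was -1.19 ± 0.0353 in VH. In DH, where Gabrg1 did not pass, Gabra2 was at -1.11 ± 0.0284. A link between these neighbours was not tested.

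Gabrd had a median of 17.8 CPM under 6NJ (14.6 to 26.3) and 15.9 CPM under 6J (13.1 to 20.1) in VH, a log2 fold change of 0.21 ± 0.0543 (adjusted p = 0.0107), and 5 libraries labelled 6NJ lay above all labelled 6J. Gabra3 had a median of 80.9 CPM under 6NJ (68.6 to 95.1) and 93 CPM under 6J (68.4 to 104), a log2 fold change of -0.16 ± 0.048 (adjusted p = 0.0328). Thus 3 of 7 passed in VH, 1 higher and 2 lower, where 9.92% of 19597 genes passed (4.87% higher and 5.06% lower), with a median of -0.041 over the members and -0.001 over all genes. Dentate markers were higher under 6NJ in 4 of 10 and lower in 1 (median 0.31; summed level 580 to 837 CPM against 500 to 806 CPM). Oligodendrocyte markers were higher in 1 of 8 (median 0.265; summed level 4480 to 7410 CPM against 3230 to 8210 CPM, with medians of 5490 and 4150 CPM), and their part was not tested. With the mean of the dentate markers as a covariate Gabrg1 still passed (-0.17, adjusted p = 0.0459), while Gabrd (0.11, adjusted p = 0.23) and Gabra3 (-0.07, adjusted p = 0.397) did not. Without the 6 codes high in Lcn2, Gabrd was at 0.20 (adjusted p = 0.0666), and with no low-count filter Gabra3 was at -0.15 (adjusted p = 0.0906).

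In DH only Gabrb1 passed. It ranged from 193 to 240 CPM under 6NJ (median 219) and from 200 to 274 CPM under 6J (median 237), a log2 fold change of -0.10 ± 0.0306 (adjusted p = 0.0183), with 8 libraries labelled 6J above every one labelled 6NJ. Here 14.7% of 19647 genes passed, so 1 of 7 is near the background. The members had a median of -0.091 and all genes of -0.005. Oligodendrocyte markers were higher under 6NJ in 7 of 8 in DH (summed level 7590 to 12800 CPM against 6250 to 10500 CPM), and their part in the result was not tested. Without the 6 codes high in Lcn2, Gabrb1 was at -0.08 (adjusted p = 0.235) and 0 of 7 passed. Fewer libraries were left in that fit, and the part of that was not tested.

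Gabra3 and Gabrd had the same signs in DH as in VH without passing. Gabra3 was at -0.18 ± 0.0807 (adjusted p = 0.14) in DH, and without the DH library 40A, its highest, it was at -0.24 (adjusted p = 0.00988). Gabrd was at 0.17 ± 0.0693 (adjusted p = 0.0924) and Gabrg1 at -0.11 ± 0.0662 (adjusted p = 0.273). With the dentate covariate Gabra3 turned to 0.0053, Gabra4 turned to -0.0332 (adjusted p = 0.571) and Gabrd was at 0.02 (adjusted p = 0.902), and none of the 3 passed. In VH Gabrb1 was at -0.08 ± 0.0351 (adjusted p = 0.172) and Gabra5 at -0.04 ± 0.0738. Gabra4 and Gabrb2 gave 95% intervals of -0.02 to 0.13 and -0.24 to 0.06 in DH, and of -0.04 to 0.09 and -0.11 to 0.26 in VH.

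In the home cage alone 0 of 7 passed in either region (edgeR; DESeq2 and limma-voom also 0), with 1 member in DH and 2 in VH at an unadjusted p under 0.05, where 0.931% and 1.35% of genes passed. Gabrd had the largest value there, 0.28 ± 0.12 in DH and 0.30 ± 0.0932 in VH (adjusted p = 0.345 and 0.11). Among member transcripts 0 passed for the strain label in DH, where 2.9% of 56523 transcripts passed, and 0 in VH, where 2.18% of 55754 passed; DESeq2 called 1 in each. Gabrb1-201 in DH (-0.09 ± 0.029, adjusted p = 0.0822) and Gabrd-201 in VH (0.20 ± 0.0586, adjusted p = 0.0611) came nearest.

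**Figure D3:**
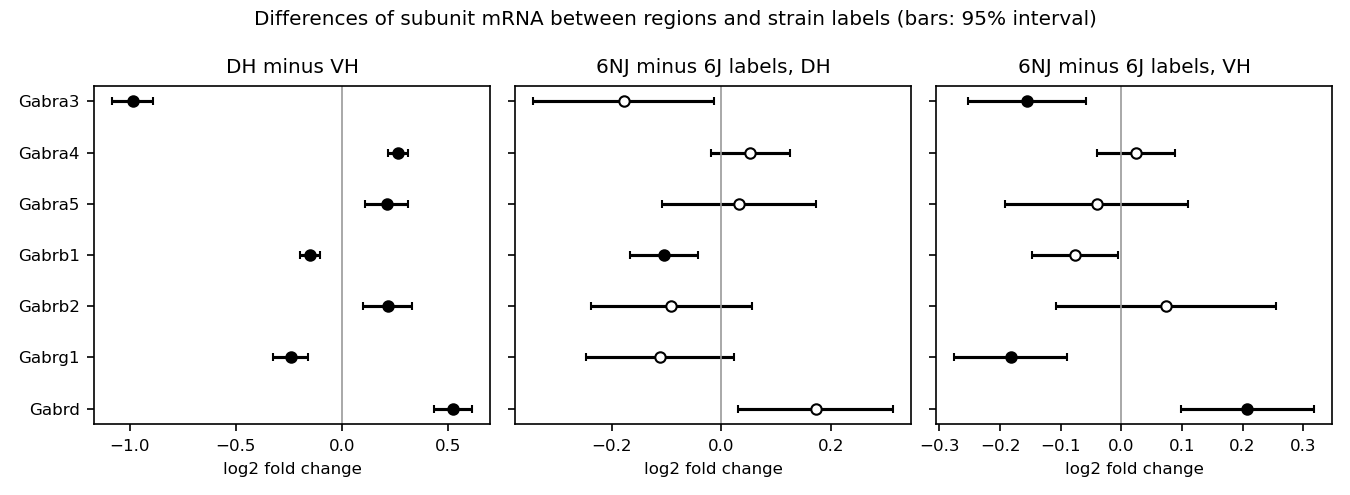
Log2 fold changes of the 7 subunits with 95% intervals from edgeR, for DH minus VH (36 libraries each) and for label 6NJ minus 6J in DH and VH (18 each); filled points passed at an adjusted p under 0.05, and the 3 panels have different axes. All 7 pass between regions, 1 between labels in DH and 3 in VH.

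After the cue, and after shock with the cue, members changed in VH. No group was handled without a cue, so effects of handling cannot be told apart from the cue. Averaged over both labels, Gabrb2, a beta subunit of the common synaptic receptor, rose from a median of 55.4 CPM in the home cage (32 to 77.1) to 75.2 CPM after the cue (60.4 to 87.8; 12 libraries each). The lowest home cage libraries were 41A, labelled 6NJ, at 32.0 CPM and 36A, labelled 6J, at 39.9 CPM, and the groups overlapped from 60.4 to 77.1 CPM. In VH, mitochondrial genes made up 9.445% of the counts of 41A and 9.34% of those of 36A. Over all libraries this share ran from 5.599% to 9.445%, and its part in the result was not tested. The log2 fold change of Gabrb2 was 0.43 ± 0.109 (adjusted p = 0.00322), 0.45 ± 0.155 under the label 6J (adjusted p = 0.0489) and 0.41 ± 0.155 under 6NJ (adjusted p = 0.0721). After shock with the cue Gabrb2 was at a median of 72.6 CPM (50.7 to 77.6) and did not pass (0.27 ± 0.11, adjusted p = 0.0746).

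Gabrb1 and Gabrg1 also rose in VH after the cue, and Gabrd fell. Gabrb1 went from a median of 240 CPM (210 to 267) to 262 CPM (230 to 298), a log2 fold change of 0.16 ± 0.0429 (adjusted p = 0.00553). Gabrg1 went from 23.8 CPM (18.1 to 28.8) to 27.3 CPM (22.4 to 30.9), a log2 fold change of 0.17 ± 0.0561 (adjusted p = 0.0215); without the codes 38A and 40C, described below, it was 0.13 (adjusted p = 0.0924). Gabrd went from 19.4 CPM (14.7 to 26.3) to 17.3 CPM (13.1 to 22.6), a log2 fold change of -0.20 ± 0.0662 (adjusted p = 0.0216). The ranges of the conditions overlapped in all 3 genes. Gabra4 (0.08 ± 0.0392, adjusted p = 0.0999), Gabra3 (0.05 ± 0.0588) and Gabra5 (-0.08 ± 0.0904) did not pass.

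In all, 4 of 7 passed after the cue in VH, 3 higher and 1 lower, where 31.5% of 19597 genes passed (16.1% higher and 15.4% lower). Within the label 6J 2 of 7 passed, Gabrb1 and Gabrb2, against 12.8% of genes, and within 6NJ 0 of 7 against 12.9%, with 2 at an unadjusted p under 0.05 and 1 by DESeq2 and by limma-voom. Microglial markers were higher in 4 of 6 (median 0.287; summed level 225 to 379 CPM after the cue and 174 to 306 CPM in the home cage). Dentate markers were higher in 1 of 10 (median 0.034). The 6 codes high in Lcn2 made up 4 of the 12 cue and 2 of the 12 home cage libraries. Without them 0 of 7 passed, with Gabrb2 at 0.43 (adjusted p = 0.0568), Gabrb1 at 0.10 (0.215), Gabrg1 at 0.16 (0.136) and Gabrd at -0.15 (0.253). This fit held fewer libraries, and the part of that in the count of 0 was not tested. The value of Gabrb2 stayed at 0.43.

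Gabrd also passed after shock with the cue, a comparison that shares its home cage libraries with that of the cue. Gabrd was at a median of 15.4 CPM there (14 to 21.2), against 19.4 CPM in the home cage, a log2 fold change of -0.27 ± 0.0664 (adjusted p = 0.00408). It was the single member to pass in that comparison, where 20.7% of genes passed. Under the label 6NJ it fell from a median of 21 CPM (17.4 to 26.3) to 15.4 CPM (14.6 to 21.2; 6 libraries each), by 0.40 ± 0.0936 on the log2 scale (adjusted p = 0.00627), and 8.65% of genes passed there. Under the label 6J it was at -0.14 ± 0.0944 (adjusted p = 0.422), with 0 of 7 members (also 0 by DESeq2, by limma-voom and at an unadjusted p under 0.05) and 3.11% of genes passing, and the difference between labels did not pass (-0.26 ± 0.133, adjusted p = 0.998). Without the codes high in Lcn2 the fall was -0.25 (adjusted p = 0.0195), and with the dentate covariate -0.25 (adjusted p = 0.00162).

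**Figure D4:**
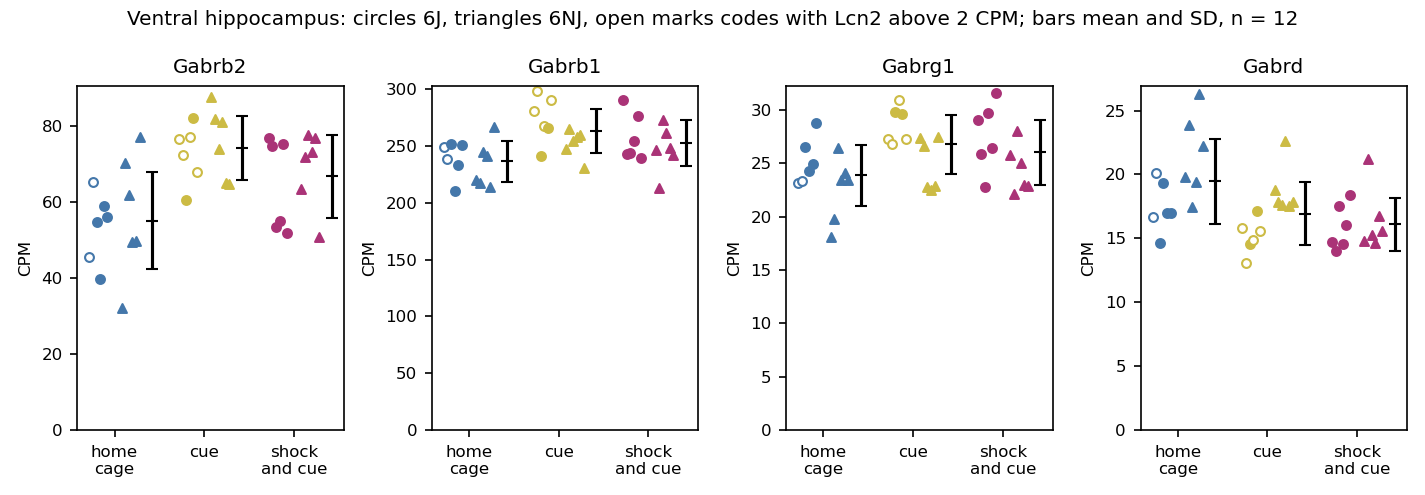
CPM of Gabrb2, Gabrb1, Gabrg1 and Gabrd in every VH library by condition, with circles for the label 6J, triangles for 6NJ, open marks for codes with Lcn2 above 2 CPM, and black bars for the mean and SD of 12 libraries. Mean Gabrb2 is 74.3 CPM after the cue against 55.1 CPM at home cage, and mean Gabrd 16.9 against 19.5 CPM.

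In DH none of the 7 passed after the cue or after shock with the cue, averaged over labels, where 13% and 10% of 19647 genes passed (edgeR; 0 by DESeq2 and limma-voom, and 0 at an unadjusted p under 0.05). Gabrb2 was at 0.08 ± 0.0882 after the cue, with a 95% interval of -0.10 to 0.26, against 0.21 to 0.66 in VH; these overlap, and the difference between regions was not tested. The 7 members ranged from -0.16 (Gabra5) to 0.08 after the cue and from -0.16 (Gabra5) to 0.18 (Gabra3) after shock with the cue. Gabrd was at -0.09 ± 0.085 after the cue and 0.01 ± 0.0847 after shock with the cue. A fit of only the groups compared called 1 of 7 after shock with the cue. Within single labels in DH, 0 of 7 passed after the cue (5.89% of genes under 6J and 2.36% under 6NJ) and after shock with the cue (1.76% and 3.57%). Of these, 1 had an unadjusted p under 0.05, Gabra5 after the cue under 6NJ, and limma-voom called 1 member there; DESeq2 called 0 in all 4. Shock with the cue against the cue gave 0 of 7 and 0% of all genes in both regions, with 1 member at an unadjusted p under 0.05 in each and 0 by DESeq2 and limma-voom. Tests of whether a response differed between labels gave 0 of 7 and 0% of genes in both regions. One member, Gabra4 after shock with the cue in VH (-0.19 ± 0.0786, adjusted p = 0.998), had an unadjusted p under 0.05 there, and DESeq2 called 0.

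Gabra5 was low in the same 2 codes in both regions. In DH the codes 38A and 40C, both labelled 6NJ and cue, held 121.9 and 119.8 CPM, while the other 4 libraries of their group held 191.5 to 253.0 CPM. In VH the same codes held 106.7 and 95.4 CPM, against 176.8 to 237.4 CPM in the other 4. These 4 values are the lowest of Gabra5 in their region: the next lowest library was at 172.8 CPM in DH (31B) and 157.6 CPM in VH (36B). Relative to the mean of the other 4, Gabra5 stood at 0.542 (38A) and 0.533 (40C) in DH and at 0.526 and 0.471 in VH.

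Gabrg3, a gamma subunit gene that neighbours Gabra5 on chromosome 7, was not low to this extent. It stood at 0.885 and 0.896 in DH and 0.959 and 0.976 in VH. Of 10507 genes with a mean of at least 10 CPM, 2 were at or under 0.65 of the other 4 libraries in both codes and both regions, Gabra5 and the gene model Gm28437 (17.7 CPM), a search made after the values were seen. With no limit on the level, 16 of 20255 genes were. Among transcripts, Gabra5-202 was at 69.1 and 77.0 CPM in DH against 106.9 to 163.4 CPM, and Gabra5-201 at 31.0 and 32.3 CPM against 43.4 to 62.7 CPM.

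The summed dentate markers of the 2 codes in DH, 1020 and 992 CPM, lay inside the range of the label 6NJ, 785 to 1130 CPM. Their choroid plexus markers summed to 4020 and 1240 CPM in DH and 73.3 and 39.6 CPM in VH, and their part in the result was not tested. Without these codes, a choice made after their values were seen, Gabra5 had a mean of 225 ± 29.4 CPM in the cue group labelled 6NJ in DH (SD, n = 4) in place of 190 ± 58.4 (n = 6), and 203 ± 26.7 in place of 169 ± 56.6 in VH. The value for the strain label moved from 0.03 ± 0.0692 (adjusted p = 0.801) to 0.11 ± 0.0382 (adjusted p = 0.0453) in DH and from -0.04 ± 0.0738 (adjusted p = 0.79) to 0.05 ± 0.0363 (adjusted p = 0.472) in VH. Because the codes were picked by Gabra5, these are descriptions. Over all 36 codes, the deviations of Gabra5 from its group means in DH and VH correlated with r = 0.81 and rho = 0.49. The permutation p was 2e-05 and 0.00298 (adjusted over 7 members 0.00014 and 0.0209), but this test included the 2 codes picked for low Gabra5. Without the 2 codes farthest from the median, which are these same codes, r was 0.6. Their values still entered the group means, which raised the deviations of the other 4 libraries of their group in both regions. Whether codes vary together in Gabra5 apart from these 2 was therefore not tested.

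**Figure D5:**
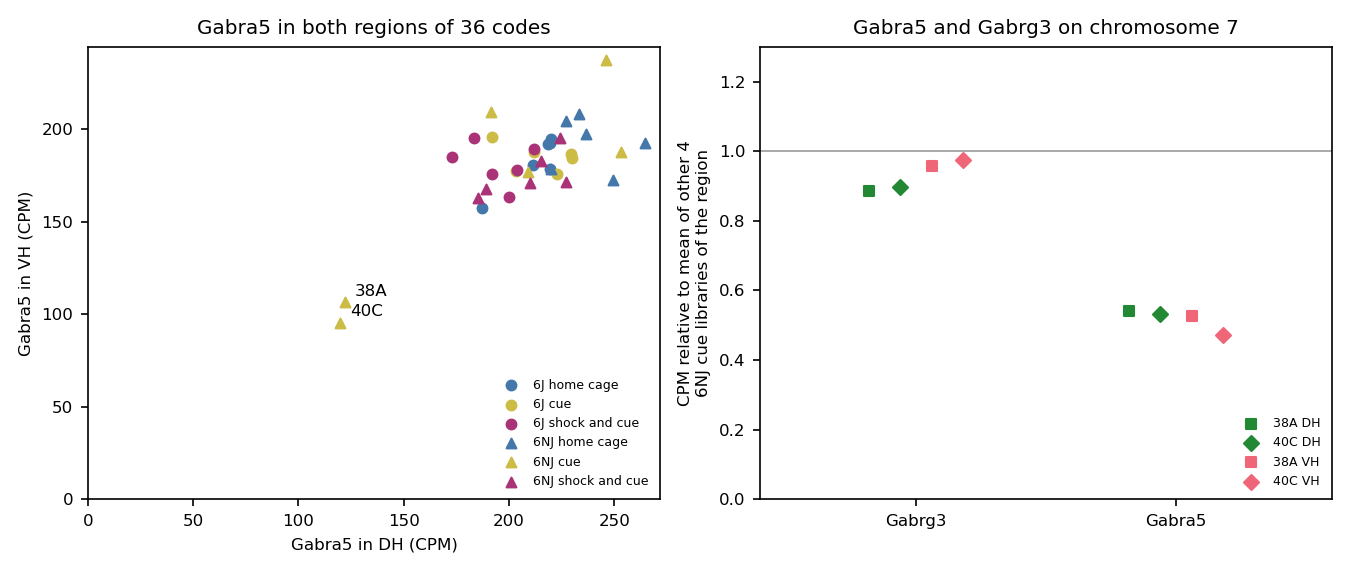
Left, Gabra5 CPM in DH and VH for the 36 codes, with circles for the label 6J, triangles for 6NJ and colours for conditions; 38A and 40C lie apart, near 120 CPM in DH and under 107 CPM in VH. Right, CPM of Gabra5 and its neighbour Gabrg3 in these codes relative to the mean of the other 4 libraries of their group: Gabra5 lies between 0.471 and 0.542, and Gabrg3 between 0.885 and 0.976.

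For the other members r and rho between regions were lower than for Gabra5, whose values include the low codes. Gabra4 (r = 0.4, rho = 0.33) and Gabrb1 (r = 0.39, rho = 0.36) passed by r (adjusted p = 0.0467 for both, permutation) and not by rho (adjusted p = 0.111 and 0.108). Gabra3, Gabrb2, Gabrg1 and Gabrd ranged from r = -0.1 to 0.2 and did not pass.

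Within a region, members also varied together beyond their groups. Of 42 relations between pairs over 36 libraries, 5 passed by both r and rho after adjustment. In DH, Gabrb2 varied with Gabrb1 (r = 0.66, rho = 0.66, adjusted permutation p = 0.00042 and 0.00168) and with Gabra4 (r = 0.6, rho = 0.56, adjusted p = 0.00315 and 0.00987), and Gabra4 with Gabrd (r = 0.54, rho = 0.52, adjusted p = 0.00735 and 0.0123). In VH, Gabra4 varied with Gabrb2 (r = 0.56, rho = 0.53, adjusted p = 0.0056 and 0.0123) and Gabra3 with Gabrg1 (r = 0.48, rho = 0.49, adjusted p = 0.0237 and 0.0252). Without the 2 libraries farthest from the median of 1 gene of each pair, r was 0.61, 0.49, 0.44, 0.41 and 0.44 in that order, and 1 of the 42 relations passed by r, in place of 8.

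The genes most like 6 of the members over the 72 libraries in log2 CPM were Cmtm4 for Gabra3 (r = 0.976), Klhl11 for Gabrb2 (0.934), Slc30a3 for Gabrd (0.926), Nrcam for Gabrb1 (0.84), Lcorl for Gabrg1 (0.785) and Lpl for Gabra5 (0.642). Deviations from the group means, which leave out region, label and condition, again gave Slc30a3 for Gabrd (0.813), which codes for a zinc transporter of synaptic vesicles. Gabrb2 was most like Ranbp2 (0.922) and Gabra5 like Ccdc177 (0.63). These are descriptions across libraries that share regions, and in part codes and depth.

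Other genes of GABA signalling were counted over lists of known members. Of 8 tested other subunits of 12 listed, 4 were higher and 3 lower in DH than VH, among them Gabrg3 (-0.29 ± 0.0284). Of 23 genes for receptor anchoring and trafficking, 8 were higher and 11 lower, against 32.7% and 30.9% of all genes: Hap1, which codes for huntingtin-associated protein 1 of receptor transport, was at 94 CPM in DH and 213 CPM in VH (-1.18 ± 0.051), and Trak2, a kinesin adaptor, at 298 and 242 CPM (0.29 ± 0.0232). Of 8 genes for GABA synthesis, transport and breakdown, 0 were higher and 5 lower, among them the GABA transporter Slc6a11 (-0.34 ± 0.0216). Of 5 chloride transporters 1 was higher, Slc12a2 (0.54 ± 0.0483), the chloride importer NKCC1, and 2 were lower.

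Between labels, 14.7% of all genes passed in DH and 9.92% in VH. Of the other subunits 1 was higher and 1, Gabra2, lower in each region. Of the 23 anchoring and trafficking genes 7 were higher and 3 lower in DH, and 3 higher and 0 lower in VH. Trak2 (0.20 ± 0.0327 in DH and 0.13 ± 0.0317 in VH) and Gabarapl2 (0.11 ± 0.0223 and 0.07 ± 0.0217) were higher in both. Slc6a11 (-0.12 ± 0.0332 and -0.10 ± 0.0265) and Aldh5a1, an enzyme of GABA breakdown (-0.07 ± 0.0183 and -0.06 ± 0.0155), were lower in both, which were the 2 of 8 that passed in each region.

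After the cue in VH, where 31.5% of all genes passed, 3 of the 8 other subunits rose and 0 fell, with Gabra2 at 0.16 ± 0.0427. Gad1 and Gad2, the enzymes that make GABA, rose after the cue (0.10 ± 0.0372 and 0.13 ± 0.0415) and after shock with the cue (0.13 ± 0.0372 and 0.16 ± 0.0415), as 2 of 8 each, against 31.5% and 20.7% of all genes; both comparisons share the home cage libraries. Of the anchoring and trafficking genes 5 rose and 5 fell after the cue, with Dmd, which codes for dystrophin, at 0.25 ± 0.0481 and Nlgn2, the neuroligin of inhibitory synapses, at -0.11 ± 0.0275. Clcn2, a chloride channel gene, fell after both (-0.17 ± 0.0362 and -0.22 ± 0.0363), and Kctd12, an auxiliary subunit of the GABA-B receptor, rose (0.22 ± 0.0404 and 0.13 ± 0.0404).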

How the data were processed

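Gene counts (deposited by the authors as whole-number counts per Ensembl gene) were used as deposited. HISAT2, featureCounts, kallisto, FastQC, DESeq2 and the build GRCm38 are named per the submitters' processing notes; no settings, including the strand mode of counting, were found in the sources used here. Per the labels' protocols, libraries were stranded mRNA, single-end, 75 bp. Estimated counts of transcripts, deposited by the authors with kallisto's columns, were rounded to whole numbers. Every sample column matched a sample.

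Counts were fitted with edgeR 4.0.16 (R 4.3.3; TMM, filterByExpr by group, robust quasi-likelihood F-test, 1 mean per group, Benjamini-Hochberg over all genes or transcripts tested, threshold 0.05), 36 libraries per region or 72 for regions; adjusted p-values are edgeR's unless another tool is named. SE was the log2 fold change divided by the square root of F. CPM used TMM-scaled totals, log2 CPM a prior count of 2, and RPKM the exon length in the table. Correlations of deviations from group means used 100000 permutations, two-sided. On simulated counts for the DH strain label, with 19494 genes run, 100 genes were changed 1.25-fold and 100 genes 1.5-fold. They were drawn from genes above a set mean count, and 85% and 98% of them were recovered. Smaller changes, such as those of the members between labels, were not simulated. No library repeated another: among 180 within-group pairs the lowest chi-square divided by its degrees of freedom was 4.51. Each code number belonged to 1 label and 1 condition, with consensus correlations of -0.0357 (DH) and -0.0301 (VH) within numbers.

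The members and gene lists were chosen with earlier results of these data known. Members were counted in every comparison, with values for those described, and of the other lists the genes with the smallest adjusted p under 0.05, at most 4 of a list in each direction; some of these genes are not reported here. Alternatives were RLE size factors, other low-count filters, DESeq2 1.42.0, limma-voom (limma 3.58.1) with code number treated as random, a fit of only the groups compared, the code as a block, a dentate marker covariate, and leaving out the codes high in Lcn2 or the DH library 40A. Leaving out 38A and 40C was chosen after the data were seen.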

Additional observations from a re-analysis of the deposited data

Results flagged for a closer look

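In 5 of 84 tests, 1 for each of 7 genes in each of 12 groups of 6 libraries, 1 library stood apart from the other 5 by Dixon's test; chance gives about 1 in 20, so this number is near what chance gives. In DH labelled 6J in the home cage, 36B held 187.0 CPM of Gabra5, below the others at 211.2 to 220.1 CPM. In DH labelled 6J after shock with the cue, 33C held 32.11 CPM of Gabrg1, above the others at 21.23 to 23.58 CPM. In VH labelled 6J after the cue, 34B held 103.0 CPM of Gabra4, above 85.16 to 88.82 CPM. Gabrd was high in 40A in VH labelled 6NJ after the cue, at 22.59 CPM against 17.51 to 18.81 CPM, and in 37B after shock with the cue, at 21.21 CPM against 14.61 to 16.71 CPM.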

How the results depend on the processing

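Counts are of members that passed out of 7. For most settings the share of all genes that passed is not given beside them. Without the codes high in Lcn2, which leaves fewer libraries, they went from 1 to 0 for the strain label in DH, from 4 to 0 for the cue in VH and from 2 to 0 for the cue in VH labelled 6J. Without the DH library 40A, or without 38A and 40C, the DH strain label gave 2. Leaving out 38A and 40C, 2835 genes passed in all, in place of 2888. The dentate marker covariate gave 1 in place of 3 for the strain label in VH, 2 in place of 7 between regions, 2 in place of 1 for shock with the cue in VH and under the label 6NJ in VH, and 1 in place of 0 for the cue in VH labelled 6NJ. DESeq2 and limma-voom each gave 2 in place of 1 for shock with the cue in VH and 1 in place of 0 for the cue in VH labelled 6NJ. Limma-voom gave 1 in place of 0 for the cue in DH labelled 6NJ, a fit of only the groups compared 1 in place of 0 for shock with the cue in DH, and no low-count filter 1 in place of 2 for the cue in VH labelled 6J. DESeq2 gave 1 transcript in place of 0 for the strain label in each region. Without the 2 libraries farthest from the median, 1 of 42 relations passed by r, in place of 8.

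Directions that turned were, with the dentate covariate, Gabra3 (0.0053) and Gabra4 (-0.0332) between labels in DH, Gabra4 (-0.0382) and Gabrb2 (-0.094) between labels in VH and Gabrb2 (-0.1828) between regions; without the codes high in Lcn2, Gabra4 between labels in VH (-0.013); and without 38A and 40C, Gabra5 between labels in VH (0.0461). Where the number of libraries or genes did not change, the cause was not tested. Among counts under settings chosen at the outset, 19 moved, by over 1.5 times or between 0 and a higher count, and 223 did not. Most comparisons had 0 members passing in the main fit, so many of the 223 were 0 in both fits and say little about stability.

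With the code as a replicate block, 7 of 7 passed between regions and 13319 genes in place of 12888. Same-coded DH and VH libraries correlated with r from -0.189 to 0.341 (median 0.0949, 16 of 36 over 0.1). Each DH library was also compared with all 36 VH libraries. Of these, 7 of 36 correlated best with their own code, more than random matching gives on average. The labels do not state what a code stands for, so the codes are treated as shared numbers only.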
